A study of Mus musculus with 6 samples.

Results

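Transcripts of 9 genes that make, bind and sense retinoic acid were compared between 2 mouse cell lines, 2H-11 and SVEC4-10. The genes are the retinaldehyde dehydrogenases Aldh1a1, Aldh1a2 and Aldh1a3, the retinol dehydrogenase Rdh10, the cellular retinoic acid binding proteins Crabp1 and Crabp2, and the retinoic acid receptors Rara, Rarb and Rarg. All 9 were found by symbol among the 34724 genes of the deposited table. They were chosen because Aldh1a1 differed widely between the lines, so the difference between the lines is given for these 9 genes as a description, with no p-value, and their calls in the fit across all genes are counted once with nothing read from them. Both were transformed with SV40, and both derive from axillary lymph node tissue of adult C3H/HeJ mice. Tumor endothelial cells is the label of 2H-11, and normal endothelial cells that of SVEC4-10. A single line stands for each label, so tumor or normal status and whatever else distinguishes 2H-11 and SVEC4-10 cannot be told apart. Each line had 3 libraries of RNA read directly on a nanopore, with no stated treatment, and nothing says that they came from separate cultures. The p-values below are therefore set against a spread between libraries that may be only technical.

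Retinoic acid is made from vitamin A in 2 oxidation steps. Retinol dehydrogenases such as RDH10 turn retinol into retinaldehyde, and retinaldehyde dehydrogenases of the ALDH1A family turn that into retinoic acid. Retinoic acid is carried in the cell by CRABP proteins and acts through retinoic acid receptors, which bind DNA paired with RXR receptors and switch target genes. CYP26 enzymes break it down. In adult tissues Aldh1a1 and Aldh1a2 are known from several epithelia, and Aldh1a2 also from the mesothelium.

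Genes of the pathway differed between the lines in both directions. SVEC4-10 carried transcripts of the enzyme Aldh1a1 at a fitted level 1027 times that in 2H-11, and next to none of either binding protein. 2H-11 carried Crabp1 and Crabp2, few Aldh1a1 reads, and the reads of Aldh1a3 and Rarb that were counted at all. Among Rara, Rarb and Rarg, Rarg was the most counted in every library of both lines. Aldh1a2 had no read in any library. These levels are in CPM, reads of a gene per 1000000 counted reads of its library. Each value after ± is the SD of a line's libraries (n = 3).

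Upstream sequence is shown first, because Rarb and Cyp26a1 carry in it the element to which retinoic acid receptors are known to bind, and because Aldh1a1 and Crabp1 were found in opposite lines. The windows run from 250 bases before to 50 bases after a RefSeq start (GRCm38.p6), counted from -1 just before the start, and 6 of the 9 genes had a window. The element was searched on both strands as a pair of half-sites in the same orientation, with NNNNN between them. Each half-site could be AGGTCA or else AGTTCA, and likewise GGGTCA or else GGTTCA. It was found in 32 of 32851 windows of all genes (0.0974%). Among the 6 genes it was found in Rarb, from -53 to -37. It was also found in Cyp26a1, a gene of retinoic acid breakdown, from -32 to -16 on the opposite strand. Capitals mark the half-sites.
Rarb, chr14:16575507-16575535, minus strand: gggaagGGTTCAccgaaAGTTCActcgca
Cyp26a1, chr19:37697770-37697798, plus strand: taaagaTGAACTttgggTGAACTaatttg
Rarb had 9 reads in 2H-11 and 0 in SVEC4-10, and Cyp26a1 had 1 and 2.

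Aldh1a1 has 2 RefSeq starts. The downstream one, which lies within the annotated gene, had CCAAT from -72 to -68 and ATAAAA from -30 to -25, both in capitals below. CCAAT was found in 37.4% and ATAAAA in 18.5% of all windows. A second CCAAT spans the start and is not shown. The other window of Aldh1a1 had neither, and neither window held the receptor element. The single Crabp1 window held GGGCGG 5 times before its start, in capitals here also where it is read on the other strand (35.7% of all windows held it at least once). Its upstream bases were 63.6% G or C, against 46.1% in the Aldh1a1 stretch. These motifs are not particular to the 2 genes. GGGCGG was found up to 4 times in a window of Rara and 3 times in 1 of Rarg, and CCAAT in windows of Aldh1a2 and Rara. Such matches describe these letters only, since binding was not measured.
Aldh1a1, chr19:20601718-20601960, plus strand: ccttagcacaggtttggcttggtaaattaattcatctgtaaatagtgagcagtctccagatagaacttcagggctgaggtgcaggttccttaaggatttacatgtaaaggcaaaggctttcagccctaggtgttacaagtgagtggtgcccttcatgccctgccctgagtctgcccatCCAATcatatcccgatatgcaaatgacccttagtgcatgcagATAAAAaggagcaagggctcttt
Crabp1, chr9:54764498-54764747, plus strand: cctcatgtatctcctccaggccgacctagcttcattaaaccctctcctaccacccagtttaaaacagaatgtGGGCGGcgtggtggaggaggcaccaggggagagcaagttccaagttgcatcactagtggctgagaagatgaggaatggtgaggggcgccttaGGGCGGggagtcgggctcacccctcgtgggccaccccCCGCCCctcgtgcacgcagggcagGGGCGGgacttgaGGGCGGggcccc

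Aldh1a1 (ENSMUSG00000053279, chromosome 19, 20492715 to 20643465 in GRCm38, plus strand) is a cytosolic enzyme that oxidises retinaldehyde to retinoic acid. It had 5076, 4687 and 22847 reads in SVEC4-10 replicates 1 to 3, or 1186, 1292 and 1360 CPM. In 2H-11 replicates 1 to 3 it had 7, 7 and 6 reads, or 1.30, 1.71 and 1.03 CPM. The lines did not overlap, and the 3 libraries of each line were close to each other. The fitted fold change was 1027-fold lower in 2H-11 (log2 fold change -10.00, SE 0.26). It ranged from -10.19 to -9.86 when single libraries were left out. By CPM, Aldh1a1 ranked 123 among 13633 Ensembl genes with a read in SVEC4-10 (202 per kilobase of transcript), and 10422 among 13590 in 2H-11 (9951 per kilobase). Its reads were 0.132% of all reads counted in SVEC4-10.

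**Figure D1:**
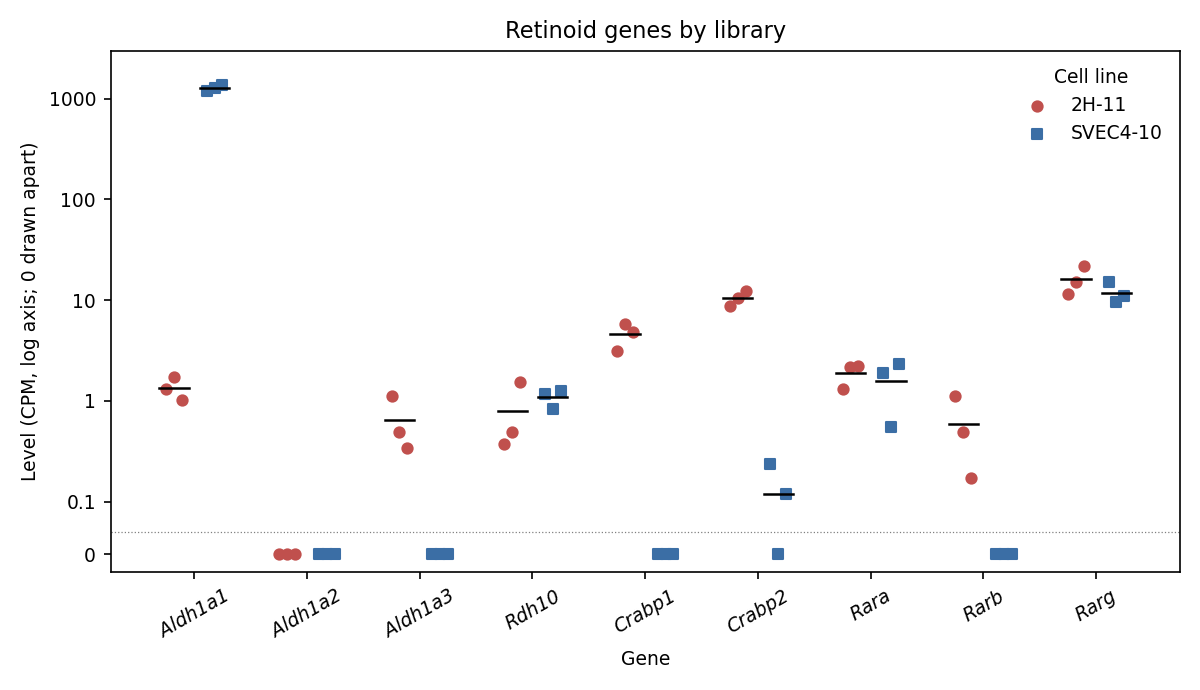
Level of each of the 9 genes in CPM (log axis, with 0 drawn apart below the dotted line) in the 3 libraries of 2H-11 (circles) and of SVEC4-10 (squares), with bars at the line means. Aldh1a1 lies between 1186 and 1360 CPM in SVEC4-10 and below 2 CPM in 2H-11, while Crabp1 and Crabp2 lie above 3 CPM in 2H-11 and below 0.3 CPM in SVEC4-10.

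The close relatives of Aldh1a1 did not share its level. Aldh1a7 lies beside it on chromosome 19 (20692953 to 20727562), and the coding sequences of the pair are 91.6% identical over 1503 bases, with a longest identical run of 100 bases. It had 2, 2 and 2 reads in 2H-11 and 1, 3 and 6 in SVEC4-10, so few reads were assigned to it beside 32610 of Aldh1a1. Aldh1a2 (ENSMUSG00000013584, chromosome 9, 71215789 to 71296243) is the enzyme that makes most retinoic acid in the early embryo. It had no read in 6 libraries. Levels of up to 0.196 CPM (2H-11) or 0.121 CPM (SVEC4-10) remain possible, taking 3 reads over the summed reads of a line as the limit of 0 counts. Aldh1a3 (ENSMUSG00000015134, chromosome 7, 66390890 to 66427517) is the third retinaldehyde dehydrogenase. It had 6, 2 and 2 reads in 2H-11 and none in SVEC4-10. At 0.649 ± 0.411 CPM it was at least 5.34-fold higher in 2H-11, a bound that fell to 1.71 without SVEC4-10 replicate 3 and 3.42 without 2H-11 replicate 1. Aldh1a1 shares 70.0% of its coding bases with Aldh1a2 and 68.6% with Aldh1a3. A fold given as at least a value divides the mean CPM of 2H-11 by the limit of 0 counts in SVEC4-10. It leaves out the counting error of the 2H-11 reads, so the true fold may be lower where these are few. The limits of 0 counts and the intervals cover counting error only.

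Rdh10 (ENSMUSG00000025921, chromosome 1, 16105774 to 16133734) catalyses the first step, from retinol to retinaldehyde. It was near the lower end of detection in both lines, with 2, 2 and 9 reads in 2H-11 and 5, 3 and 21 in SVEC4-10. These are 0.372, 0.487 and 1.54 CPM against 1.17, 0.827 and 1.25 CPM, and the lines overlapped, since 2H-11 replicate 3 was the highest of all 6 libraries. Per kilobase its level in SVEC4-10 was 0.302 ± 0.0626 CPM, beside 543 ± 37.1 CPM for Aldh1a1, the enzyme of the next step.

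Both binding proteins were counted almost entirely in 2H-11. Crabp2 (ENSMUSG00000004885, chromosome 3, 87948666 to 87953376) is known to deliver retinoic acid to its receptors in the nucleus. It had 47, 43 and 71 reads in 2H-11 replicates 1 to 3, or 8.74, 10.5 and 12.2 CPM, and 1, 0 and 2 reads in SVEC4-10. The ratio of summed reads, each over its line's total, was 86.6 (95% counting interval 29.1 to 424). Crabp1 (ENSMUSG00000032291, chromosome 9, 54764748 to 54773110) binds retinoic acid in the cytoplasm. It had 17, 24 and 28 reads in 2H-11, or 3.16, 5.85 and 4.81 CPM, and none in SVEC4-10. At 4.6 ± 1.35 CPM it was at least 37.9-fold higher in 2H-11, and at least 12.1-fold without SVEC4-10 replicate 3, which held 68.0% of the reads of its line. The coding sequences of Crabp1 and Crabp2 are 70.8% identical, with no identical run over 11 bases. Crabp1 made up 26.6%, 35.8% and 28.3% of the reads of the pair in the 2H-11 libraries. Its share per kilobase was 33.4% ± 5.18.

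**Figure D2:**
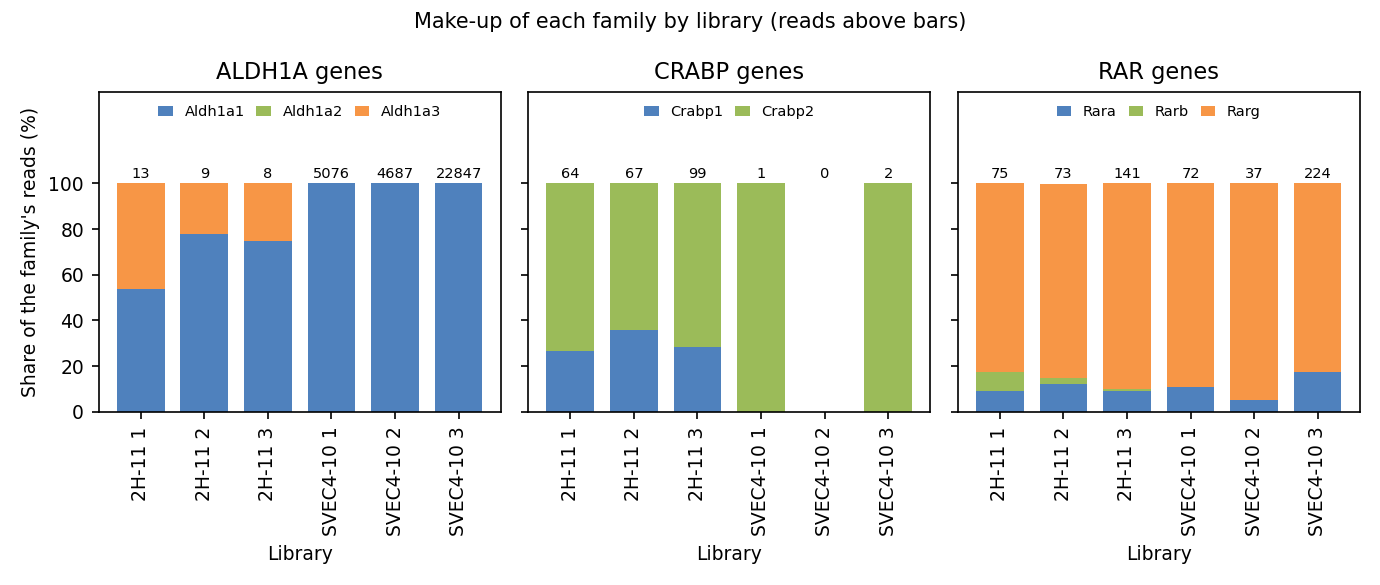
Share of each gene in the reads of its family (percent, linear axis) in each of the 6 libraries, with the family's number of reads above each bar. Aldh1a1 makes up 100% of the ALDH1A reads in SVEC4-10 and 53.8% to 77.8% of far fewer reads in 2H-11, and Rarg makes up most RAR reads throughout.

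For 2 of the 3 receptors the lines overlapped. Rarg (ENSMUSG00000001288, chromosome 15, 102234938 to 102257517), best known from skin and cartilage, had 11.5, 15.1 and 21.8 CPM in 2H-11 and 15, 9.65 and 11 CPM in SVEC4-10. The lines overlapped, and the log2 fold change was 0.37 (SE 0.28). Leaving out single libraries moved it between 0.05 and 0.56. Rara (ENSMUSG00000037992, chromosome 11, 98927818 to 98974942), a receptor known to be broadly expressed, had 1.30, 2.19 and 2.23 CPM in 2H-11 and 1.87, 0.551 and 2.32 CPM in SVEC4-10. These levels overlapped as well, and SVEC4-10 replicate 2, with 2 reads, was the lowest library. Rarb (ENSMUSG00000017491, chromosome 14, 16430839 to 16819156) is itself a target that retinoic acid induces in many cells. It had 6, 2 and 1 reads in 2H-11 and none in SVEC4-10. At 0.592 ± 0.481 CPM it was at least 4.87-fold higher in 2H-11, and at least 1.56-fold without SVEC4-10 replicate 3. Without 2H-11 replicate 1 only 3 reads were left and no fold can be given. Per kilobase, Rarg held 87.2% ± 3.65 of the receptor family in 2H-11 and 90% ± 5.4 in SVEC4-10. The receptors' coding sequences are 72.5% to 76.3% identical to each other, with no identical run over 24 bases.

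Within a line the order of levels per kilobase of transcript was as follows, in CPM per kilobase. In 2H-11, Crabp2 was highest at 11.2 ± 1.85, above Crabp1 at 5.74 ± 1.69 and Rarg at 5.47 ± 1.76, and those 2 differed by less than their SD. Aldh1a1 (0.571 ± 0.144) and Rara (0.564 ± 0.155) came next and differed by less than their SD, as did Rdh10 (0.223 ± 0.180), Rarb (0.190 ± 0.155) and Aldh1a3 (0.188 ± 0.119). In SVEC4-10, Aldh1a1 at 543 was followed by Rarg at 4.02 ± 0.934. Rara (0.467 ± 0.272) and Rdh10 (0.302 ± 0.0626) came after and differed by less than the larger SD, and Crabp2 was at 0.126 ± 0.126. A direct RNA read can stand for a whole molecule whatever its length, and without the length scaling the first places in 2H-11 turn. There Rarg was at 16.1 ± 5.21 CPM, above Crabp2 at 10.5 ± 1.72 and Crabp1 at 4.6 ± 1.35.

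The fit across all genes could test 5 of the 9 genes, since 4 had too few reads (Aldh1a2, Aldh1a3, Rarb and Rdh10). It called Crabp1 and Crabp2 higher and Aldh1a1 lower in 2H-11, and neither Rara nor Rarg. Over all 13187 genes tested, 36.2% were called, 20.1% higher and 16.2% lower in 2H-11. Because the genes were chosen on this contrast, nothing is read from their count. The libraries of the lines did not overlap for 5 of the 9 genes, 4 of them with 2H-11 higher and 1 with SVEC4-10 higher. Over the genes with a read, 23.3% did not overlap with 2H-11 higher and 12.9% with SVEC4-10 higher.

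The remaining genes of retinoid metabolism and signalling were counted over 6 lists of 101 genes in all, 100 of them in the table. Of 46 that could be tested, 7 were higher and 11 lower in 2H-11 at an adjusted p under 0.05 (edgeR quasi-likelihood test, Benjamini-Hochberg adjustment over all genes tested). That is 39.1% of those tested, close to the 36.2% of all genes. Over all genes tested, 20.1% were higher and 16.2% lower, and the count of each list below is to be read beside these shares. Their median log2 fold change was -0.19, beside 0.00 over all genes. Without 2H-11 replicate 1 only 4 were higher, and without 2H-11 replicate 2 only 7 were lower. Genes named below outside the stated rule were chosen after their values were seen.

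Among 16 genes of retinol uptake, carriage and storage, 2 could be tested, 1 was higher in 2H-11 and 0 lower. Scarb1, a lipoprotein receptor that also takes up carotenoids, was at 39.9 ± 6.56 against 19.1 ± 6.12 CPM (1.91-fold, adjusted p = 0.00453). Rbp4, the carrier of retinol in blood, and Rbp2 had 15 and 11 reads in 2H-11 and none in SVEC4-10, too few to test. Stra6, the retinol uptake receptor, had 2 reads in all, and Lrat, which stores retinol as esters, had none.

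Enzymes that interconvert retinol and retinaldehyde went both ways, with 1 of 9 tested higher and 3 lower in 2H-11. Dhrs4, a carbonyl reductase that accepts retinaldehyde, was at 50.4 ± 7.74 against 78.5 ± 9.72 CPM (1.67-fold lower, adjusted p = 0.00480). Rdh5, known from the visual cycle of the eye, was at 12.4 ± 0.939 against 23.2 ± 6.73 CPM (1.96-fold lower, adjusted p = 0.00501). Dhrs9, a retinol dehydrogenase, was at 1.08 ± 0.676 against 2.64 ± 0.495 CPM (adjusted p = 0.0408). Its call was lost with DESeq2 (adjusted p = 0.108) and without any 1 library other than 2H-11 replicate 1. Adh7, an alcohol dehydrogenase active on retinol, was higher, at 10.6 ± 2.30 against 5.32 ± 1.62 CPM (adjusted p = 0.0234), a call lost without 2H-11 replicate 1, 2H-11 replicate 2 or SVEC4-10 replicate 3. Dhrs3, which reduces retinaldehyde and is induced by retinoic acid, had 7.80 ± 0.939 CPM beside 9.93 ± 5.01 CPM (adjusted p = 0.343, not past the threshold).

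The CYP26 enzymes were close to 0 in both lines. Cyp26a1 had 1 read in 2H-11 and 2 in SVEC4-10, Cyp26b1 had 1 and 11, and Cyp26c1 had none. Cyp2s1, another cytochrome P450 reported to act on retinoic acid, was the only one of 4 tested. Its level was lower in 2H-11 (0.386 ± 0.312 CPM, with 4.93 ± 1.89 CPM in SVEC4-10), a 13.3-fold difference with an adjusted p of 2.46e-05. Only 6 reads in 2H-11 lie behind it, 4 of them in replicate 1, and without that library the log2 fold change moved from -3.73 to -4.64.

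Of 15 partner and orphan receptors and the carrier among them, 8 could be tested, 2 were higher in 2H-11 and 0 lower. Rxra, the partner with which retinoic acid receptors pair, was at 9.78 ± 2.29 against 4.22 ± 1.68 CPM (2.16-fold, adjusted p = 0.0116), and it did not pass without SVEC4-10 replicate 2 (adjusted p = 0.0540). Rxrb was at 8.10 ± 2.52 and 7.39 ± 2.45 CPM (adjusted p = 0.822), and Rxrg had no read. Fabp5, a fatty acid binding protein that can carry retinoic acid to PPARD, was at 220.0 ± 14 against 108 ± 8.39 CPM (1.89-fold, adjusted p = 0.000309). Without SVEC4-10 replicate 3, 4 genes of this list were higher. Of 16 co-regulators tested, 0 were higher and 4 lower. Ajuba, a LIM protein reported to bind retinoic acid receptors, was at 10.1 ± 0.769 against 32.7 ± 11.8 CPM (3.52-fold lower, adjusted p = 2.68e-05). Trim24, a nuclear receptor cofactor, was at 3.28 ± 0.943 against 7.11 ± 2.82 CPM (adjusted p = 0.00975), and did not pass without SVEC4-10 replicate 3 (adjusted p = 0.126). The others were Kat2b (adjusted p = 0.0112) and Tbl1x (adjusted p = 0.0459). Kat2b was not called without 2H-11 replicate 2, nor Tbl1x without 2H-11 replicate 1, 2 or 3 or SVEC4-10 replicate 3. Only 2 co-regulators were lower without 2H-11 replicate 2 or without SVEC4-10 replicate 3. Hdac3, the most abundant, was at 42.0 ± 5.79 and 50.8 ± 8.56 CPM (adjusted p = 0.187). Ncoa1, with 2 reads in 2H-11 and 47 in SVEC4-10, had too few to test.

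Genes known as retinoic acid targets moved in both directions. Of 35 such genes outside the 9, 13 could be tested. Of these, 4 were higher (30.8%) and 3 lower (23.1%) in 2H-11, beside 20.1% and 16.2% of all genes tested. Tgm2 had the smallest p. It encodes tissue transglutaminase and was at 38.6 ± 4.02 against 2.81 ± 0.759 CPM (12.3-fold, adjusted p = 4.28e-09). The other higher genes were Adh7, Meis1 and Rai14, with differences of 1.02 or less on the log2 scale. Rai14 (adjusted p = 0.0436) lost its call when any 1 library was left out, and Meis1 (adjusted p = 0.0279) without 2H-11 replicate 1 or 2 or SVEC4-10 replicate 2 or 3. The 3 lower genes are transcription factors, Gata6 (1.2 ± 0.472 against 15.5 ± 3.21 CPM, adjusted p = 1.48e-07), Gata4 and Meis2. Meis2 (adjusted p = 0.0130) was not called without 2H-11 replicate 2. Plat, the most abundant, was at 51.7 ± 5.25 and 35.5 ± 7.32 CPM (adjusted p = 0.0856). Stra8, Cdx1 and Hoxb1 had no read. Among targets with too few reads to test, Hic1 and Ret had 28 and 22 in 2H-11 and none in SVEC4-10. Nr2f1 had 45 and 20, and Cyp26b1 went the other way with 1 and 11. Of the 35, libraries did not overlap for 8 with 2H-11 higher and 4 with SVEC4-10 higher. Over all genes with a read these shares were 23.3% and 12.9%. Without 2H-11 replicate 1 or SVEC4-10 replicate 3, 1 and 2 targets were higher.

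**Figure D3:**
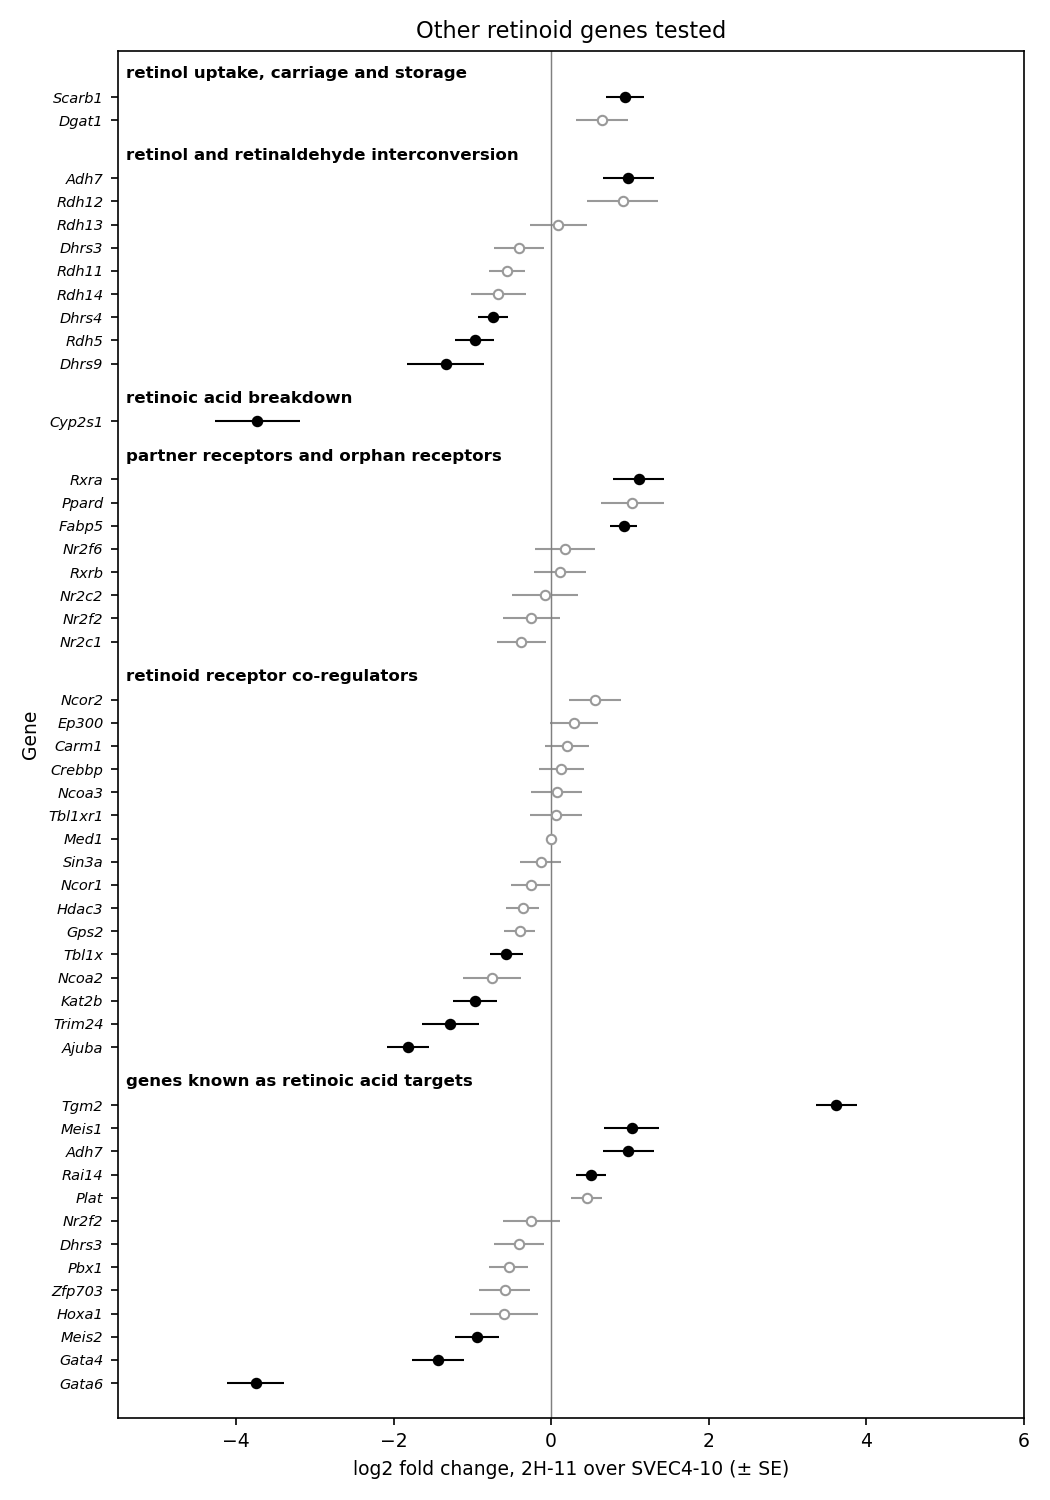
Log2 fold change of 2H-11 over SVEC4-10 (linear axis) with its SE for every tested gene of the 6 lists of other retinoid genes (Med1, next to 0, has no SE). Filled points passed an adjusted p under 0.05, and Tgm2 at 3.62 stands furthest to the right, with most others between -2 and 2.

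The other aldehyde dehydrogenases give the level of the wider enzyme family. Of 18, 11 could be tested, with 1 higher and 3 lower in 2H-11, 36.4% of those tested. Aldh2, the mitochondrial enzyme of acetaldehyde, was at 37.4 ± 7.29 against 4.47 ± 2.63 CPM (8.60-fold higher, adjusted p = 5.23e-07). Aldh6a1, an enzyme of valine breakdown, was at 2.15 ± 1.10 against 17.5 ± 4.5 CPM (8.86-fold lower, adjusted p = 9.73e-07). Aldh18a1, of proline synthesis, was at 46.1 ± 7.98 against 72.5 ± 17.5 CPM (adjusted p = 0.00760). Leaving out any 1 library other than 2H-11 replicate 3 made 2 of them higher. The summed level of all 18 lay between 228 and 355 CPM in every library, and the ranges of the lines overlapped.

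Other transcripts moved with Aldh1a1. By the Euclidean distance over the 6 libraries of log2(CPM + 0.5), each gene less its own mean, the 5 nearest were picked from 3016 genes whose mean reached 50 CPM in at least 1 line. They were Gpm6a (1.16), Upk3b (1.33), Smpd3 (1.48), Upk1b (1.62) and Angptl7 (1.92). In that order their mean levels in 2H-11 were 0, 0.644, 0.0572, 0.434 and 0 CPM, and those in SVEC4-10 were 206, 1402, 238, 1387 and 196 CPM. With 2 lines this distance mostly reflects the size of the difference between them. Gpm6a, Upk3b and Upk1b are known from mesothelial cells. They are also in a list of 16 mesothelial markers. That list was chosen with earlier results of these data known, so nothing is read from the overlap. Of its 11 genes tested, 10 were lower in 2H-11, with Krt19 the exception. Over all genes tested, 16.2% were lower. Most of the 10 were near 0 in 2H-11 and could be tested only because of their reads in SVEC4-10. Nothing is therefore read from that count. The summed level of the 16 markers lay between 3478 and 4433 CPM in the SVEC4-10 libraries, beside 61.8 to 75.7 CPM in those of 2H-11. Upk3b, Upk1b and Msln, at 1402, 1387 and 674 CPM, made up most of that sum in SVEC4-10. As Upk3b and Upk1b were picked for their nearness to Aldh1a1, the sum largely repeats that pick. Wt1, which marks mesothelium, was at 1.83 ± 0.540 against 33.9 ± 8.50 CPM, while Calb2 had 1 read, in SVEC4-10, and Igfbp5 had 1, in 2H-11. The part of such cells in the level of Aldh1a1 was not tested, and in bulk RNA fewer cells of a type and less RNA per cell cannot be told apart.

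Most markers of the labelled cell type were near 0, with a few counted in 2H-11. Of 20 pan-endothelial genes, 10 had no read and 15 never reached 1 CPM in a library. All 3 that could be tested were higher in 2H-11, where 20.1% of all genes tested were. They were led by Ecscr at 47.7 ± 6.33 CPM, followed by Eng and Egfl7 at 9.61 and 5.4 CPM. In SVEC4-10 these 3 were at 0.0919, 2.45 and 0.787 CPM. They could be tested only because of their reads in 2H-11, so nothing is read from their shared direction. Pecam1 and Cdh5, which define endothelial cells, had 1 and 2 reads in 2H-11 and none in SVEC4-10. The summed level of the list lay between 59.4 and 73.1 CPM in the 2H-11 libraries, beside 4.67 to 6.61 CPM in those of SVEC4-10. Ecscr, Eng and Egfl7 made up most of that sum in 2H-11, so nothing more is read from it. The fibroblast and mural list had 12 testable genes, with 8 higher and 1 lower in 2H-11. Some of the 8, such as Pdgfrb and Thy1 with no read in SVEC4-10, could likewise be tested only because of 2H-11. The summed level of this list was 2207 to 2869 beside 2475 to 2779 CPM. Acta2, its most abundant gene, overlapped between the lines. Leukocyte markers, summed, reached at most 4.41 CPM in any library, and Lyz2 had the highest mean among them. The epithelial markers Epcam and Cdh1 had no read, and Krt14 led that list at 7.13 ± 0.952 and 8.56 ± 2.51 CPM (adjusted p = 0.476).

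**Figure D4:**
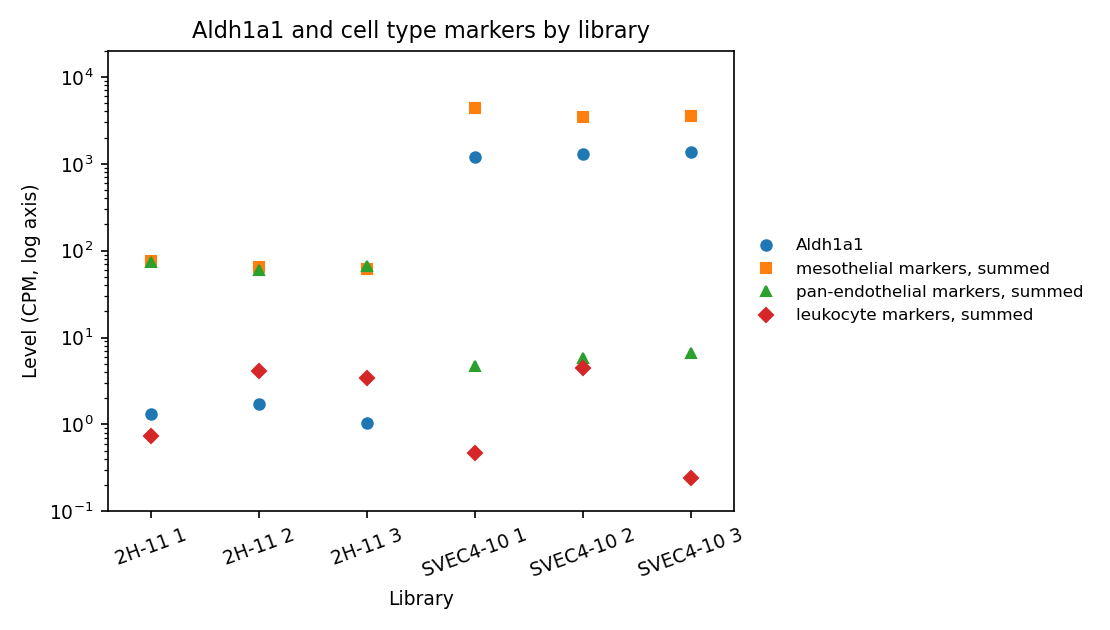
Level in CPM (log axis) of Aldh1a1 and of 3 marker lists, each summed over its genes, in each of the 6 libraries. Aldh1a1 and the mesothelial markers are both high in the SVEC4-10 libraries and low in the 2H-11 libraries, while the leukocyte markers stay below 5 CPM in every library. Most of the mesothelial sum in SVEC4-10 is from Msln and from Upk3b and Upk1b, which were picked as near Aldh1a1.

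Counted reads per library were between 3628400 and 16798666. No 2 libraries of a line agreed within sampling noise, with a chi-square per degree of freedom of 5 to 15.2 over genes.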

How the data were processed

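Per the labels' protocols, Trizol was used to take total RNA, of which 1 ug went into each direct RNA nanopore library (SQK-RNA002); genome builds mm10 and GRCm38 are named in the submitters' processing notes. Aligner, counter, annotation and use of strand: not given in the sources used here. Deposited by the authors were raw read counts per gene and the same counts as CPM, per the file headers, each CPM being a count over its library total. Left out were 13 broken lines without a gene name.

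The main test on the counts was that of edgeR 4.0.16 under R 4.3.3 (filterByExpr with a minimum count of 10 and total of 15, TMM scaling, quasi-likelihood test, line as the only term, threshold 0.05). On simulated data for 13187 genes it recovered 6% of 50 changes of 1.5-fold, 52% of 50 of 2-fold and 100% of 50 of 4-fold. It made 5 false calls in 134. The changes were placed only in genes with a mean above 5 CPM, so recovery in genes below that was not tested. Far fewer genes were changed there than the 36.2% called in the data. The adjustment was therefore stricter than in the data, and these shares do not give the recovery of the real comparison. No SE is given for a log2 fold change within 0.05 of 0. Alternatives were a replicate block, DESeq2 1.42.0, other scaling and filters, Ensembl genes only, thinning, and leaving out libraries.

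Positions and transcript lengths (the longest basic transcript) are from GENCODE M21, in which 22022 of 22036 Ensembl identifiers were found. Coding sequences were aligned with Biopython 1.88. An item withheld from the gene lists is not reported here. The members and gene lists were chosen with earlier results of these data known. From each retinoid or dehydrogenase list the 2 smallest p past the threshold and the most abundant tested gene were named, and from each marker list the most abundant gene. Aldh1a7 and the 5 genes nearest Aldh1a1 were named too. Reads of close relatives and of overlapping or antisense genes may be shared.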

Additional observations from a re-analysis of the deposited data

How the results depend on the processing

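Aldh1a1, Rara and Rarg stayed within 1 SD of the reported log2 fold change under each alternative that tested them; Rara had too few reads to be tested in some. Crabp2 was at 5.56 after thinning to the smallest library, against 6.14. The lower bounds in fold were 17.3 for Crabp1, 2.00 for Aldh1a3 and 2.33 for Rarb after thinning, and 12.1 to 43.9, 1.71 to 6.60 and 1.56 to 6.60 when single libraries were left out; fewer SVEC4-10 reads raise the limit of 0 counts. With no filter, 4 of the 9 genes were called higher, where 14.7% of all genes tested were; with at least 20 counts in 3 libraries 1 was, where 19.3% of all were. With no filter 13 other retinoid genes were higher, among them 3 of uptake and storage and 5 partner receptors, as were 2 aldehyde dehydrogenases; Cyp2s1 was not tested with the stricter filter, leaving 0 breakdown genes lower. Leaving out single libraries gave 4 to 8 other retinoid genes higher and 7 to 11 lower, 1 to 2 aldehyde dehydrogenases higher, 0 to 1 interconversion enzymes higher and 2 to 3 lower, 2 to 4 partner receptors higher, 2 to 4 co-regulators lower and 1 to 5 targets higher. On Ensembl genes alone 1657 of all genes were higher and 1631 lower, and there Plat passed (adjusted p = 0.0307). Library size alone in place of TMM moved the median log2 fold change of all genes by 0.10. Deviations of same-numbered libraries of the lines had correlations of -0.018, 0.051 and -0.003, and those of other pairs lay between -0.078 and 0.071. No strong effect shared by number was seen, but this cannot tell whether the libraries were prepared in pairs. A replicate block called 2491 genes higher and 1970 lower. Of the 5 genes nearest Aldh1a1, 4 or 5 were shared under every alternative. Genes under about 1 CPM rest on a few reads, so differences in Rdh10, Rarb and Aldh1a3 are limited by depth.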
